A study of Homo sapiens with 6 samples.

Results

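The 3p arms of late annotated mirtrons were examined among the miRNAs of exosomes released by human ES cells. They were taken by name as the human 3p entries in the number ranges from miR-6715 to miR-6895 and from miR-7106 to miR-7114, blocks that hold mostly mirtrons. This gave 182 of the 2549 human miRNAs on the array. The 185 entries of the same number ranges that end in 5p, the other 693 human 3p entries and 11 entries of earlier annotated mirtrons were used for comparison. Of these 11, 10 are 3p entries by name and also among the 693, and miR-1231 is not. H9 is an established human ES cell line, kept here on Matrigel in TeSR-E8 medium, and all arrays come from this single line. The study named its colonies substate 1 where they stained strongly for R-10G, a pluripotency epitope, and lacked vimentin, and substate 2 where R-10G staining was weaker and the mesenchymal protein vimentin was present. ExoQuick-TC was the reagent for collecting exosomes from the culture medium. Their miRNAs were labelled with Cy3 and hybridised to Agilent arrays, 1 array per substate in each of 3 experiments.

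Substate 1 was at passage 41 and substate 2 at passage 52 in experiment 1, with 72.4 ng labelled for either. Experiment 2 used passages 46 and 61 and 100 ng, and experiment 3 used passages 50 and 65 and 51.4 ng. Substate 2 was always the later passage, so that substate and passage cannot be told apart. The arrays of experiment 1 lay on slide 1 and were read with a later version of Feature Extraction, the image analysis software, and those of experiments 2 and 3 lay on slide 2. Both substates of an experiment shared slide and version, and the part of either in differences between experiments was not tested. Nothing in the labels says whether the experiments were separate cultures beyond their passages, so p-values measure the spread between these arrays. Whether fewer exosomes or less of a miRNA in each lowered a signal cannot be told apart.

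A mirtron is a miRNA precursor that is itself a short intron. Splicing and debranching of the lariat release it as a hairpin without the Drosha cut that other precursors need, and Dicer then makes the mature arms. The 3p arm of such a hairpin carries the 3′ end of the intron, so that a stretch rich in C and U and a terminal AG, the marks of a 3′ splice site, are typical of it, while the 5p arm is often rich in G.

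Mature sequences from RefSeq (GRCh38.p14) matched 161 of the 182 3p arms, and they carried these marks. AG ended 75.8% of them, against 7.59% of 158 matched 5p arms and 9.32% of 622 other 3p entries. CAG ended 65.2%, 1.90% and 5.31% of the same lists. C and U made up a median of 72.7% of the bases of a 3p arm, 31.8% of a 5p arm and 54.5% of another 3p entry. Among 150 hairpins of these 3p arms in the same table, 92.7% ended in AG and 74.7% ended with the last base of the mature 3p arm, against 10.8% and 9.71% of 556 hairpins of other 3p entries. The mark of a 5′ splice site, GU at the first bases, stood in 12.7% of these hairpins, so most of them lacked it, and in 8.27% of the others. The hairpins had a median of 67 bases, against 82 for the others. A protein-coding gene on the same strand spanned 138 of the 161 loci (85.7%), against 48.1% of the other 3p entries. Of the 34 detected arms with a sequence 10 did not end in AG. They were miR-6722-3p, miR-6730-3p, miR-6766-3p, miR-6797-3p, miR-6800-3p, miR-6801-3p, miR-6834-3p, miR-6840-3p, miR-6865-3p and miR-6891-3p.

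The 3p arms shown first are those detected on 4 or more of the 6 arrays for which the table holds a sequence. Their signals are described arm by arm below. Seed bases 2 to 8 are in capitals, and no seed was shared among these 10 arms.
miR-6797-3p: uGCAUGACccuucccuccccac
miR-6813-3p: aACCUUGGccccucuccccag
miR-6819-3p: aAGCCUCUguccccaccccag
miR-6722-3p: uGCAGGGGucgggugggccagg
miR-6800-3p: cACCUCUCcuggcaucgcccc
miR-6851-3p: uGGCCCUUuguaccccuccag
miR-7111-3p: aUCCUCUCuucccuccucccag
miR-6737-3p: uCUGUGCUucaccccuacccag
miR-6777-3p: uCCACUCUccuggcccccag
miR-6870-3p: gCUCAUCCccaucuccuuucag

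Most of these lines end in cag after a run of c and u, as an intron does. The arms miR-6797-3p and miR-6800-3p are rich in C but end in cac and ccc. The exception is miR-6722-3p, with 31.8% C and U and an end in agg, so that its mature sequence lacks the marks of a mirtron 3p arm. Its locus lies on the strand and within the span of LCN6, a lipocalin gene.

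The loci of the 3 arms detected on all 6 arrays lie within a protein-coding gene span on the same strand, as most loci of the group do. The mature miR-6797-3p is at chr19:41869675-41869696 on the plus strand, within the span of RPS19, which encodes a protein of the small ribosomal subunit. The locus of miR-6813-3p is chr20:64076955-64076975 on the minus strand, within RGS19, which encodes a regulator of G protein signalling. That of miR-6819-3p is chr22:36286847-36286867 on the minus strand, within MYH9, which encodes the heavy chain of a non-muscle myosin. Among the other arms shown, hosts on the same strand include RPL10A for miR-7111-3p, a ribosomal protein gene, SREBF1 for miR-6777-3p, a regulator of lipid synthesis, and JAG1 for miR-6870-3p, a Notch ligand. Positions are those of the RefSeq table, and whether a locus is intronic was not examined here.

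A shared seed means a shared set of possible target sites, and only 10 of the 161 matched arms shared a seed within the group, as 5 pairs. In 3 of these pairs the array detected 1 arm at least once and the other never.
miR-6819-3p: aAGCCUCUguccccaccccag
miR-6877-3p: cAGCCUCUgcccuuggccucc
miR-6824-3p: uCUCUGGUcuugccaccccag
miR-6764-3p: uCUCUGGUcuuuccuugacag
miR-6801-3p: aCCCCUGCcacucacuggcc
miR-6810-3p: uCCCCUGCucccuuguuccccag
In each pair the upper arm was the detected arm, on 6 arrays for miR-6819-3p, on 2 for miR-6824-3p and on 1 for miR-6801-3p. Outside the group, miR-6797-3p shared its seed with miR-6076, which was detected on 5 arrays.
miR-6797-3p: uGCAUGACccuucccuccccac
miR-6076: aGCAUGACagaggagaggugg
Beyond the seed this pair differs in composition, with 77.3% C and U in the upper and 19.0% in the lower sequence.

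The array software called a miRNA detected where the signal of a probe exceeded 3 times its error, and it wrote the total signal of an undetected miRNA as 0.1 intensity units. By this mark 38 of the 182 arms (20.9%) were detected on at least 1 array, beside 24.7% of all human miRNAs, 35.7% of the 5p arms and 173 of the 693 other 3p entries. The remaining arms were detected on none. The difference from the other lists was wider for steady detection. All 6 arrays detected 3 of the 182 arms (1.65%), against 11.3% of all human miRNAs, 19.5% of the 5p arms and 11.0% of the other 3p entries. Between these extremes, 5 arms were detected on 1 array, 10 on 2, 12 on 3, 4 on 4 and 4 on 5. The number on all arrays, 3, became 18 (9.89%, beside 15.3% of all miRNAs) by the mark for positive and significant spots. It was 0 by the mark for spots well above background, and 9 without experiment 3. No arm was detected on all 3 arrays of one substate and none of the other.

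Detection of the 3p arms followed the experiment more than the substate. In experiment 1 the arrays detected 36 arms in substate 1 and 34 in substate 2. In experiment 2 the numbers were 10 and 23, and in experiment 3 they were 5 and 7. Each of the 38 arms was detected on at least 1 array of experiment 1, and 32 of them on both. Arms seen on both arrays of experiment 1 and nowhere else numbered 9. Of the 12 arms detected on 3 arrays, 11 had the same pattern, both arrays of experiment 1 and substate 2 of experiment 2, and miR-6765-3p had substate 1 of experiment 2 instead.

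The lists used for comparison varied less between experiments. The 5p arms detected were 65 and 54 in substates 1 and 2 of experiment 1, 53 and 47 in experiment 2, and 37 and 38 in experiment 3. All human miRNAs detected came to 594 and 527, 465 and 470, and 332 and 310 in the same order. As a share of all miRNAs detected on an array, the 3p arms made up 6.06% and 6.45% in experiment 1, 2.15% and 4.89% in experiment 2, and 1.51% and 2.26% in experiment 3. This share was the higher in substate 2 in each experiment, and both values of experiment 1 lay above all others. By the mark for positive and significant spots the order turned in experiment 1, with 56 of 786 in substate 1 and 50 of 727 in substate 2. The number of 3p arms detected in substate 2 minus substate 1 was −2, 13 and 2 in the 3 experiments, a mean of 4.33 ± 7.77 (SD, n = 3 experiments), so that the difference was smaller than its spread. For the 5p arms it was −5.33 ± 6.03.

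**Figure D1:**
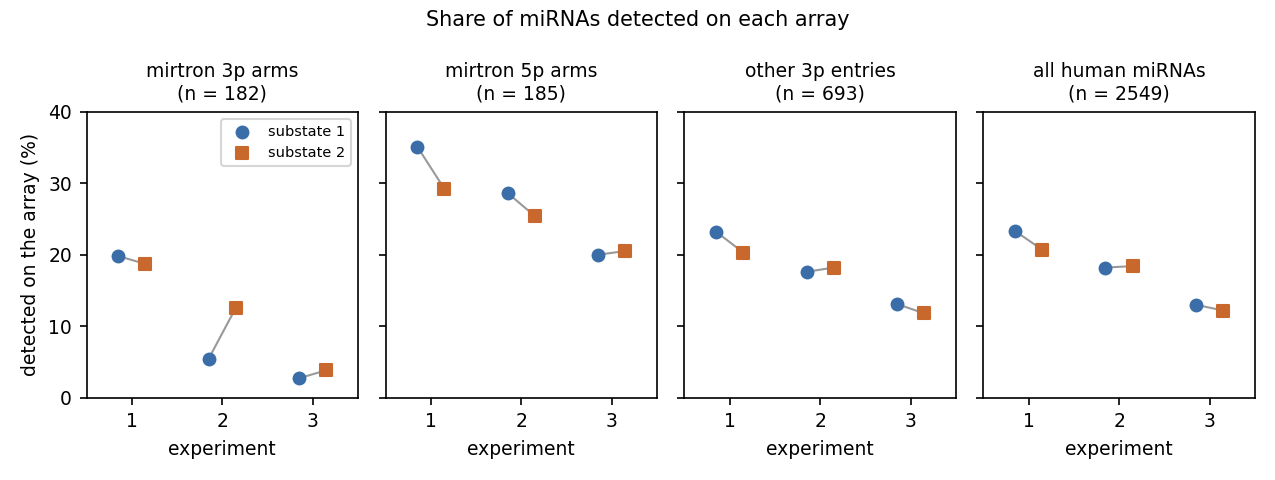
Share of miRNAs detected on each array (y axis, percent of the list), by experiment (x axis), for the mirtron 3p arms, the mirtron 5p arms, the other 3p entries and all human miRNAs. Circles are substate 1, squares substate 2, and a line joins the arrays of an experiment. The 3p arms range from 2.75% to 19.8%, with a gap between the substates in experiment 2 (5.49% and 12.6%) that the other lists do not show.

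Experiment 2 held the widest gap between the substates. There 9 of the 3p arms were detected in both substates, 14 in substate 2 alone and 1 in substate 1 alone. For the 5p arms the corresponding numbers were 46, 1 and 7, in the opposite direction. In experiment 1 the 3p arms split into 32 in both, 2 in substate 2 alone and 4 in substate 1 alone, and in experiment 3 into 3, 4 and 2. The median error of the probes for the 3p arms was 0.289 intensity units in substate 1 and 0.291 in substate 2 of experiment 2. It was 0.330 and 0.232 in experiment 1, and 0.334 and 0.288 in experiment 3.

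Signals of the 3p arms were low on every array. The median total signal of detected arms was 4.68 and 3.14 intensity units in substates 1 and 2 of experiment 1, 1.86 and 2.40 in experiment 2, and 1.74 and 1.12 in experiment 3. No arm exceeded 14.3 intensity units on any array, whereas the 99th percentile over all human miRNAs lay between 125 and 476. Over the 115 detections of a 3p arm, the highest ratio of probe signal to error had a median of 5.67 and a range of 3.01 to 9.45. It was under 6 in 55.7% of these detections, against 24.5% of 294 detections of 5p arms and 32.2% of 2698 detections over all human miRNAs. In experiment 3 the median ratio of the detected arms was 3.56 and 3.60, near the limit of 3, while it was 6.37 and 6.12 in experiment 1.

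The arm miR-6797-3p gave 12.6 and 9.92 intensity units in substates 1 and 2 of experiment 1, 2.94 and 4.43 in experiment 2, and 2.42 and 3.36 in experiment 3. Its signals were highest in experiment 1, where substate 1 was the brighter, while substate 2 was the brighter in experiments 2 and 3. As a percentage of the 99th percentile of its array, the scale used for the comparison of substates, the signal was 2.64 and 3.69 in experiment 1, 0.829 and 1.57 in experiment 2, and 1.35 and 2.68 in experiment 3. On this scale substate 2 was higher in each experiment, but the values of the substates overlapped across experiments.

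The arm miR-6813-3p gave 9.83 and 6.78 intensity units in experiment 1, 1.86 and 2.86 in experiment 2, and 1.74 and 2.49 in experiment 3, with substate 1 first. The order of the substates was that of miR-6797-3p in all 3 experiments. Its scaled signals were 2.07% and 2.52%, 0.524% and 1.01%, and 0.966% and 1.99% of the 99th percentile, again higher in substate 2 within each experiment and overlapping across them.

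The arm miR-6819-3p differed from both. Its signals were 14.3 and 9.59 intensity units in experiment 1, 4.11 and 2.08 in experiment 2, and 1.89 and 1.46 in experiment 3. Substate 1 had the brighter array in every experiment. Scaled, they were 3.00% and 3.57%, 1.16% and 0.737%, and 1.05% and 1.16% of the 99th percentile, with the higher value in substate 2 in experiments 1 and 3 and in substate 1 in experiment 2.

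The 4 arms detected on 5 arrays, chosen for description after their values were seen, were all undetected in substate 1 of experiment 3. The arm miR-6800-3p gave 9.29 and 6.60 intensity units in experiment 1, 2.16 and 3.71 in experiment 2, and 0.920 in substate 2 of experiment 3. For miR-6851-3p the values were 8.79 and 6.68, 1.41 and 4.01, and 0.675. For miR-7111-3p they were 6.51 and 3.58, 1.12 and 2.40, and 0.984. These 3 arms shared their order on all arrays, the brighter substate being substate 1 in experiment 1 and substate 2 afterwards. In experiment 3 the ratio of probe signal to error was 2.86 and 3.04 in substates 1 and 2 for miR-6800-3p, 2.60 and 3.15 for miR-6851-3p, and 2.56 and 3.22 for miR-7111-3p, on either side of the limit of 3.

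The fourth of these arms, miR-6722-3p, whose sequence lacks the mirtron marks, also differed in its signals. It gave 2.15 and 1.01 intensity units in experiment 1, 3.08 and 2.19 in experiment 2, and 1.12 in substate 2 of experiment 3. Experiment 2 was thus its brightest, and its signal was higher in substate 1 in experiments 1 and 2.

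Of the 4 arms detected on 4 arrays, also chosen after their values were seen, miR-6777-3p and miR-6848-3p were undetected in both substates of experiment 3. Signals were 6.39 and 4.37 intensity units in experiment 1 and 1.85 and 2.95 in experiment 2 for miR-6777-3p. They were 5.79 and 3.45, and 1.07 and 2.10, for miR-6848-3p. The other pair was missing in substate 1 of experiment 2 and in substate 2 of experiment 3. For miR-6737-3p the detected signals were 7.48 and 5.13 intensity units in experiment 1, 4.33 in substate 2 of experiment 2 and 1.06 in substate 1 of experiment 3. For miR-6870-3p they were 2.89, 2.06, 3.25 and 1.26 on the same arrays.

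**Figure D2:**
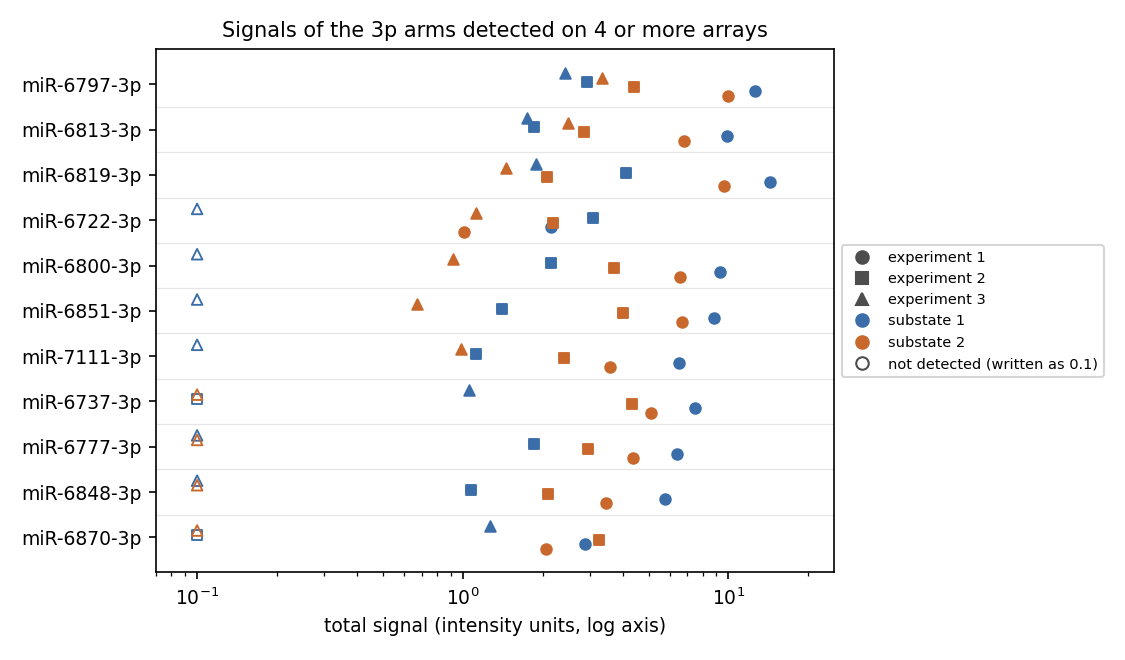
Total signals (x axis, intensity units, log axis) of the 11 3p arms detected on 4 or more arrays. Marker shapes give the experiment, colours the substate, and open markers stand for arrays without detection, which the software wrote as 0.1. For 10 of the 11 arms the brightest array is substate 1 or 2 of experiment 1 or substate 2 of experiment 2, and the exception, miR-6722-3p, is brightest in substate 1 of experiment 2.

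The 12 arms detected on 3 arrays ranged from 2.16 to 6.41 intensity units in substate 1 and from 0.882 to 4.49 in substate 2 of experiment 1. In substate 2 of experiment 2, 11 of them gave between 1.04 and 5.71. The highest of these was miR-6880-3p, with 6.41 and 4.49 intensity units in experiment 1 and 5.71 in substate 2 of experiment 2. In substate 1 of experiment 2 its probe signal was 2.56 times its error, under the limit, against 6.99 times in substate 2. A wider gap was that of miR-6798-3p, at 0.645 and 6.94 times its error. Both were chosen after their values were seen.

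For the comparison of substates, signals were divided by the 99th percentile of their array, raised to a common floor of 0.431% of it, and taken to log2. The floor is the highest over the arrays of the lowest scaled signal of a detected miRNA, and it shrinks the differences of dim miRNAs. The filter of detection on at least 3 of the 6 arrays left 474 miRNAs, 23 of them 3p arms, and the other arms were not tested. Of the 138 values of the tested arms 40.6% stood at the floor, against 20.0% of the values of all tested miRNAs.

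No 3p arm was called, and limma called 0.00% of the 474 miRNAs (adjusted p under 0.05 and at least 2-fold). The smallest adjusted p among the arms was 0.167. At an unadjusted p under 0.05 limma had 3 arms higher in substate 2 (13.0% of 23) and 0 lower, beside 9.70% and 13.3% of all tested miRNAs. The 3 arms were miR-6797-3p, miR-6800-3p and miR-6813-3p, and the number of such arms in other settings ranged from 0 with the labelled amount to 11 with signals under 1 set to 1 and 23 with normexp correction. A paired test of the same values with the same adjustment called 0 of the 474 miRNAs and had 57, 1 of them an arm, at an unadjusted p under 0.05. The study ran such a test on miRNAs with a 2-fold difference only, and on values processed otherwise. With this floor no arm reached a 2-fold difference in either direction. Among all tested miRNAs 4.85% reached it with substate 2 the higher and 4.64% with substate 2 the lower. With the deposited values, which have no floor, 15 arms were at least 2-fold higher. There an undetected signal stays at 0.1 intensity units times a constant. The median difference with these values was 1.42 over the arms and −0.12 over all tested miRNAs. The share of all miRNAs at least 2-fold higher with them is not given here. With the floor, the scaled signals of the substates separated in no arm. They did for 11.8% of all tested miRNAs with substate 2 higher and for 14.1% with substate 2 lower. Yet 14 of the 23 arms stood at the floor in both substates of experiment 3, which makes separation impossible. Among all 474 tested miRNAs 127 had a difference of 0 in experiment 3.

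Below this threshold the differences of the arms lay mostly on one side with the 99th percentile as scale, while with the labelled amount 14 were above and 9 below 0, and with quantile normalisation 14 were above, 1 below and the rest at 0. On the main scale the log2 difference, substate 2 minus substate 1, was above 0 for 21 of the 23 arms (91.3%), beside 48.3% of all tested miRNAs, and for 7 of the 50 tested 5p arms (14.0%). Its median was 0.35 over the arms (0.04 with the labelled amount and 0.06 with quantile normalisation), −0.01 over all tested miRNAs, −0.34 over the 5p arms and 0.15 over the other 3p entries. The range over the arms was −0.08 to 0.85. By experiment the median over the arms was 0.28, 0.79 and 0.00 (SD 0.40), so that it did not exceed the spread between experiments. In experiment 3, 14 of the 23 arms stood at the floor in both substates and had a difference of 0. Of the 23 arms 11 passed the filter only with substate 2 of experiment 2, beside both arrays of experiment 1. Their substate 1 stood at the floor in experiment 2, so that their difference there could not be below 0. The filter thus took part in the count of 21 and in the medians over the arms. A miRNA with a difference of 0 in experiment 3 cannot be higher in all 3 experiments, which bars 14 of the 23 arms and 127 of all 474. Arms higher in substate 2 in all 3 experiments numbered 4 of 23 (17.4%), beside 21.1% of all tested miRNAs. They were miR-6797-3p, miR-6800-3p, miR-6813-3p and miR-6851-3p.

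These medians depended on the scaling. The 99th percentile was lower in substate 2 in every experiment, by 0.82, 0.33 and 0.52 on the log2 scale. Before scaling, the intensity of all 23 arms was lower in substate 2 in experiment 1, while it was higher for 20 and lower for 3 in experiment 2. Among these 20 were the 11 arms that passed the filter only with substate 2 of experiment 2. In experiment 3 the intensity was higher for 6 and lower for 3, and 14 were undetected in both. With the labelled amount in place of the 99th percentile, the median was 0.04 over the arms and −0.51 over all tested miRNAs, and with quantile normalisation it was 0.06 and 0.00.

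**Figure D3:**
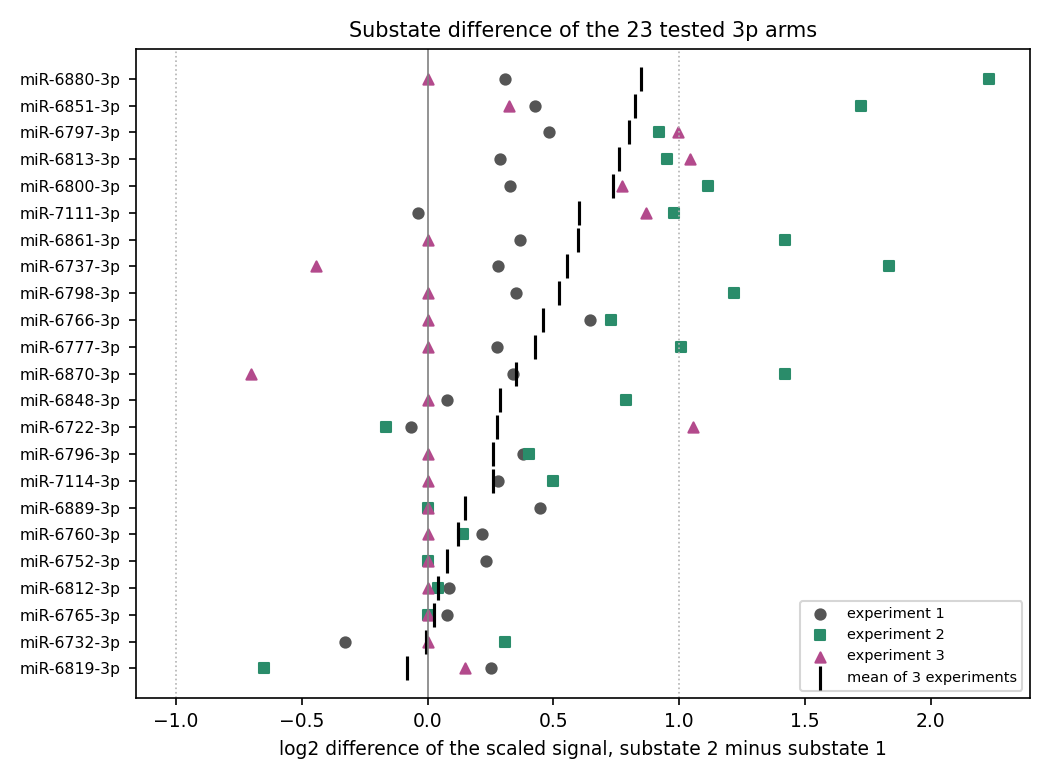
Log2 difference of the scaled signal, substate 2 minus substate 1 (x axis), for the 23 tested 3p arms (y axis), in each of the 3 experiments (markers) and as their mean (bars). Dotted lines mark a 2-fold difference. All 23 means lie between −0.08 and 0.85, the widest values come from experiment 2, and 14 arms lie at 0 in experiment 3, where both substates are at the floor, while with the labelled amount in place of the 99th percentile 9 of the 23 means are below 0.

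The difference of miR-6797-3p was 0.48, 0.92 and 1.00 on the log2 scale in the 3 experiments, a mean of 0.80 ± 0.28 (SD, n = 3; limma, adjusted p = 0.167). That of miR-6813-3p was 0.29, 0.95 and 1.04, a mean of 0.76 ± 0.41 (SD, n = 3; limma, adjusted p = 0.203). Both means exceeded their spread on this scale without passing the threshold, and with the labelled amount they were 0.24 and 0.20. For miR-6819-3p the differences of 0.25, −0.65 and 0.15 gave a mean of −0.08 ± 0.49 (SD, n = 3; limma, adjusted p = 0.852), and its sign changed with the processing.

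Among the arms detected on fewer arrays, the floor took part in the differences. For miR-6800-3p they were 0.33, 1.11 and 0.77, where the value of experiment 3 sets a detected signal against the floor (limma, adjusted p = 0.203). For miR-6851-3p they were 0.43, 1.72 and 0.32 (limma, adjusted p = 0.274). The mean of miR-6880-3p, 0.85, had the widest spread of any tested arm (0.31, 2.23 and 0.00; SD 1.21), with its highest value in experiment 2. The arms miR-6737-3p and miR-6870-3p had differences of opposite sign, 1.83 and 1.42 in experiment 2 and −0.45 and −0.70 in experiment 3. For miR-6722-3p they were −0.07, −0.16 and 1.05.

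The opposite arms of the same hairpins were examined next, and both arms had an entry for 179 hairpins. Neither arm was detected for 91 of them, the 5p arm alone for 50, the 3p arm alone for 24 and both for 14. The 5p arm was thus detected for 36.8% of the hairpins with a detected 3p arm, close to 35.8% of all 179. Of the 35 hairpins whose 5p arm was detected on all 6 arrays, 27 (77.1%) had a 3p arm detected on none, close to 78.8% of all 179, and no hairpin had both arms on all 6. The 5p arms of miR-6797-3p and miR-6813-3p were undetected throughout, and miR-6819-5p was detected on 2 arrays, both of substate 1, with 3.18 intensity units in experiment 1 and 2.61 in experiment 2. These 5p arms are shown for their bases, rich in G where the 3p arms are rich in C.
miR-6797-5p: aGGAGGGAaggggcugagaacagga
miR-6813-5p: cAGGGGCUgggguuucagguucu
miR-6819-5p: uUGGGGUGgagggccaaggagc
The arm miR-6800-5p was detected on all 6 arrays and its 3p arm on 5. It gave 212 and 127 intensity units in experiment 1, 309 and 181 in experiment 2, and 138 and 102 in experiment 3. Its log2 difference was 0.08, −0.44 and 0.09, with a mean of −0.09 (limma, adjusted p = 0.747).

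Detected and undetected 3p arms differed in base composition, which the choice of the group did not use. The composition measures were chosen after the values were seen, and the comparison is a description. Over the 34 detected arms with a sequence the median share of C was 52.4%, against 42.9% over 127 undetected arms, and the median share of G and C was 65.2% against 59.1%. The share of C and U was 75.6% against 71.4%, and AG ended 70.6% against 77.2%, so that the splice site marks themselves were about as frequent in either. The motif CCCC, read on the mature strand, stood in 27 of the 34 detected arms (79.4%) and in 28 of the 127 undetected arms (22.0%). From the other side, 49.1% of 55 arms with CCCC and 6.60% of 106 arms without it were detected on at least 1 array. Over all 2248 human miRNAs with a sequence, 6.81% held CCCC.

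A difference in the same direction was seen among the other 3p entries, where CCCC stood in 19.1% of the 152 detected and in 4.68% of the 470 undetected sequences, although their median share of C was 22.7% and 23.8%. Without the earlier annotated mirtrons these shares were 17.0% of 147 and 4.29% of 466. Among the 5p arms it was rare in either, with 1.79% and 0.980%. The 7 detected 3p arms without CCCC were miR-6722-3p and miR-7111-3p on 5 arrays, miR-6732-3p and miR-6765-3p on 3, miR-6834-3p and miR-6865-3p on 2, and miR-6840-3p on 1. Of the pairs with a shared seed, the upper arms miR-6819-3p and miR-6824-3p hold CCCC and their partners do not, while miR-6801-3p and its undetected partner miR-6810-3p both hold it. How composition bears on labelling and hybridisation was not tested.

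**Figure D4:**
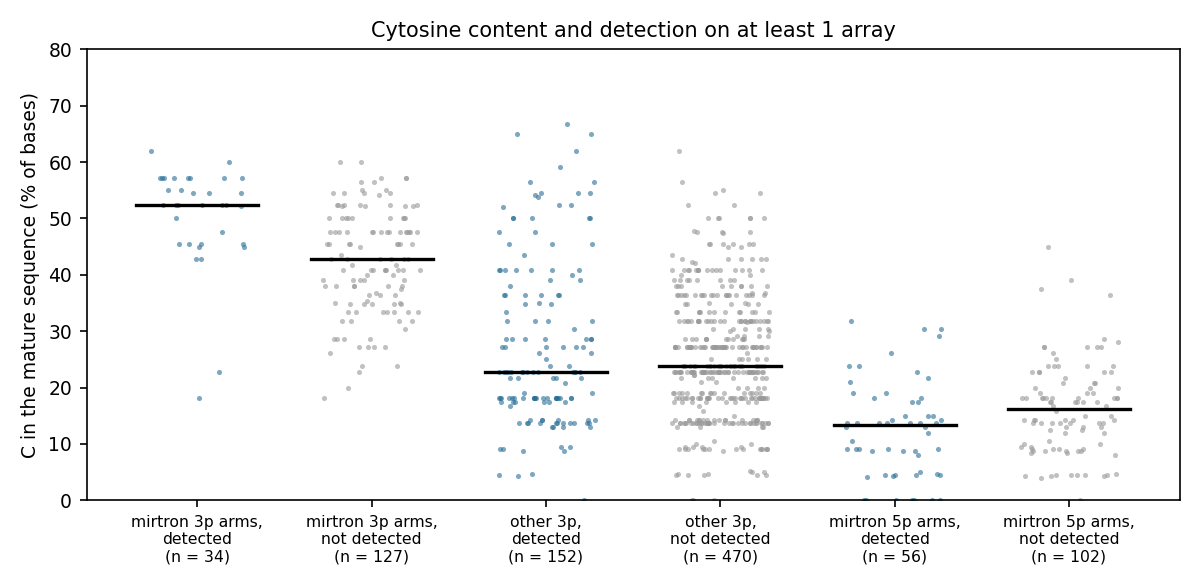
Share of C in the mature sequence (y axis, percent of bases) for detected and undetected mirtron 3p arms, other 3p entries and mirtron 5p arms (x axis). Each point is a miRNA, bars are medians, and detected means on at least 1 of the 6 arrays. The medians are 52.4% and 42.9% for detected and undetected 3p arms, 22.7% and 23.8% for the other 3p entries, and 13.3% and 16.2% for the 5p arms.

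Mirtron entries annotated earlier were detected more often, and without the gap of experiment 2, where 4 were detected in either substate. Of the 11 on the array 6 were detected at least once, 3 of them on all 6 arrays and 1 on 5. The sequences of 3 of these 4 are in the table and are shown for comparison, and the first and last end in ccc.
miR-1228-3p: uCACACCUgccucgcccccc
miR-1229-3p: cUCUCACCacugcccucccacag
miR-1238-3p: cUUCCUCGucugucugcccc
The entry miR-1228-3p gave 13.2 and 9.10 intensity units in experiment 1, 4.51 and 5.23 in experiment 2, and 3.07 and 3.12 in experiment 3. Its log2 difference was 0.29, 0.55 and 0.55, a mean of 0.46 (limma, adjusted p = 0.178). For miR-1238-3p the mean was 0.55 (limma, adjusted p = 0.203), for miR-1234-3p 0.17 and for miR-1229-3p −0.34 (limma, adjusted p = 0.409). The signals of miR-1229-3p were 7.51 and 2.58 intensity units in experiment 1, 7.39 and 4.12 in experiment 2, with 2.46 and 1.98 in experiment 3, the higher always in substate 1.

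The label of the cells was checked on miRNAs that mark ES cells. All 5 of miR-302a-3p, miR-302b-3p, miR-302c-3p, miR-302d-3p and miR-367-3p, the cluster typical of pluripotent cells, were detected on all 6 arrays. For miR-302a-3p the signals were 1703 and 663 intensity units in experiment 1, 887 and 841 in experiment 2, and 725 and 293 in experiment 3. Those of miR-367-3p were 1207 and 527, 838 and 1348, and 729 and 506, with the higher value in substate 2 in experiment 2 only. Other ES cell markers were nearly absent, with miR-371a-3p on 2 arrays, miR-373-3p on 1 and miR-372-3p on none. Markers of liver (1), muscle (3) and immune cells (4) were undetected throughout. Of 3 red blood cell markers miR-486-5p alone was detected, on 3 arrays, as were miR-126-3p for endothelium and miR-145-5p for fibroblasts, while miR-143-3p, the other fibroblast marker, was undetected. Among 4 neuron markers miR-124-3p and miR-128-3p were detected on all 6 arrays and both arms of miR-9 on none. The detected neuron markers were dim, at 3.23 to 9.15 intensity units for miR-124-3p and 1.23 to 8.47 for miR-128-3p.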

How the data were processed

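Exosome miRNAs of 6 arrays, 1 per substate in each of 3 experiments, were measured with 1 colour on Agilent human miRNA arrays. The signal intensity deposited by the authors comes from Agilent Feature Extraction, which subtracts background, sums a total signal per miRNA and marks detection, with no normalisation between arrays. The deposited log2 values of the authors are the same total signals, scaled by a constant per array, with column medians of −12.73, −11.77, −12.06, −12.14, −11.37 and −10.88 in the order of experiments and substates. They have no centring per miRNA, and what fixed the constants is not known. They served as an alternative.

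For scaling, the total signals of an array were set relative to its 99th percentile, the percentile named in the study's methods, with a common floor of 0.431% and log2 afterwards. The test was that of limma (version 3.58.1, under R 4.3.3), two-sided and blocked by experiment, over the 474 human miRNAs with at least 3 detections, with Benjamini-Hochberg adjustment. The model was tested on simulated data. The pairing rests on the experiment numbers of the labels. Deviations from the substate means correlated at 0.674, 0.0307 and 0.517 between the paired arrays of experiments 1 to 3. Correlations between arrays lay between 0.936 and 0.981. Each 3p arm had 2 or 3 probes, and no spot was saturated. Spots well above background made up 8.39% to 16.9% per array, and precision is limited by the small number of arrays.

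Named are arms detected on all 6 arrays, tested arms at least 2-fold apart and arms detected throughout one substate alone (none of either kind), with their 5p arms and seed partners, and earlier annotated entries detected on at least 3 arrays. Arms on 3 to 5 arrays were described after their values were seen. Further arms are named only in lists of detected arms without AG at the end or without CCCC, and of pairs with a shared seed. The arms and lists were chosen with earlier results of these data known. Sequences were matched by name to RefSeq tables of GRCh38.p14. The alternatives changed the block, scaling, floor, signal, background correction (normexp, offset 50, on median intensities), filter, test or mark of detection, used the deposited values, or left out an experiment.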

Additional observations from a re-analysis of the deposited data

How the results depend on the processing

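The results were recomputed under the alternatives. Without the replicate block the median log2 difference of the tested arms stayed at 0.35, and 1 miRNA was called (0 in the main analysis). Calls numbered 3 with normexp correction and 7 among miRNAs detected on all 6 arrays, and no 3p arm was called in any setting. With normexp the median over all miRNAs moved to 0.33, and all 23 arms were above 0. All 23 had an unadjusted p under 0.05 (limma), as did 74.7% of all miRNAs, counted in both directions together. Arms at least 2-fold higher in substate 2 (0) became 4 with the floor at 50% of its value, 2 with signals under 1 set to 1 and 15 with the deposited values, and 0 to 3 without 1 experiment. The matching shares over all miRNAs are not given here. Undetected signals stay at 0.1 intensity units times a constant in the deposited values. The median of 0.35 became 1.42 with the deposited values, which have no floor (−0.12 over all tested miRNAs). It was 0.76 for the 3 arms on all 6 arrays (−0.05 over all miRNAs detected on all 6). Arms at an unadjusted p under 0.05 (3) numbered 0 with the labelled amount, the deposited values or no block, beside 151, 50 and 93 of all 474 miRNAs, and 11 beside 125 with signals under 1 set to 1. The median was 0.64 in that setting, 0.56 with the floor at 50% of its value, 0.04 with the labelled amount, 0.06 with quantile normalisation, 0.10 for arms detected on at least 1 array, and 0.18 to 0.47 without 1 experiment. With normexp miR-6797-3p and miR-6813-3p had adjusted p of 0.0063 at smaller differences of 0.47 and 0.45, with the labelled amount 0.656 and 0.728 at 0.24 and 0.20, and with quantile normalisation 0.172 and 0.405 at 0.66 and 0.37. The difference of miR-6819-3p, −0.08, became −0.64 with the labelled amount (limma, adjusted p 0.203) and 0.06 with quantile normalisation. It was 0.18 with the signal per spot and 0.36 with normexp (limma, adjusted p 0.0122), and ranged from −0.25 to 0.20 without 1 experiment. Arms detected on at least 1 array (38) became 59 by the mark for positive and significant spots (32.4%, beside 35.2% of all miRNAs) and 24 to 38 without 1 experiment. Arms detected on all arrays (3) became 18 by that mark (9.89%, beside 15.3% of all miRNAs, a narrower gap than 1.65% beside 11.3%), 0 by the mark for spots well above background (beside 8.32% of all miRNAs), and 3 to 9 without 1 experiment. Where the construction does not show it, the cause was not tested.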
